A study of Mus musculus with 9 samples.

Results

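The Notch pathway genes described here were 36 genes, chosen by their known place in the pathway: 4 receptors, 6 ligands, 7 target genes, 4 glycosylation enzymes, 6 processing enzymes, 3 members of the nuclear complex and 6 modulators. All 36 were measured, among 18193 genes tested. The arrays came from the auditory nerve of adult CBA/CaJ mice of both sexes, aged 8 to 12 weeks, with 3 arrays in each of 3 groups. Neurospheres, the free-growing clusters formed by proliferating cells, came from nerve cells that were first grown like the cultured cells and then kept for 12 days in serum-free medium with EGF at 20 ng/ml, FGF at 10 ng/ml and heparin at 2 µg/ml. Cultured cells were dissociated from the nerve with trypsin and grown attached in medium with 10% serum until confluent, which took 5 to 7 days. Tissue was the dissected nerve with no treatment. Both culture groups are thus mixed populations that had passed through serum culture, with no sorting step described. No label ties the samples to animals or cultures. The p-values therefore describe the spread among these 3 samples a group and no more, and that spread may be technical.

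Notch signalling passes between neighbouring cells. A ligand of the Jagged or Delta-like family on 1 cell binds a Notch receptor on the next, an ADAM metalloprotease and then γ-secretase cut the receptor, and the freed intracellular domain enters the nucleus. There it joins the DNA-binding protein RBPJ and a Mastermind coactivator and turns on genes of the Hes and Hey families, which encode transcriptional repressors. In the developing cochlea the pathway sorts hair cells from supporting cells, and in peripheral nerve it takes part in the Schwann cell lineage.

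The values are log2 signals, so a difference of 1 is a doubling, and each gene is read by the brightest of its probe sets, the groups of short probes on the array. A gene passed a comparison when limma gave an adjusted p under 0.05 and the fold change was over 1.5. Levels of different genes are not compared, since probe sets differ in brightness. Array medians lay between 6.15 and 6.27, arrays of the same group correlated at 0.993 to 0.997 across genes, and the median SD of a gene within a group was 0.117 in neurospheres, 0.104 in cultured cells and 0.112 in tissue. A signal of about 2.56 to 3.53, the range of 3 Y-linked genes in cultured cells, served as the dim level. That use takes these genes as unexpressed in the cultured cells, although the mice were described as of both sexes. Whether the sexes were shared alike by the 3 groups was not tested. The labelled nerve held its defining cells: the mean level of 13 neuronal markers was 5.85 to 5.97 on the neurosphere arrays, 5.81 to 5.99 on the cultured-cell arrays and 11.47 to 11.73 on the tissue arrays. The mean of 9 Schwann and glial markers was 7.64 to 8.06 in neurospheres, 7.65 to 7.99 in cultured cells and 11.28 to 11.45 in tissue. Fibroblast and matrix markers, 12 in number, ran the other way, with means of 11.83 to 11.93 in neurospheres, 11.68 to 11.94 in cultured cells and 9.83 to 10.14 in tissue. The mean of 10 markers of cochlear epithelium and lateral wall was 9.41 to 9.48 in tissue. It was 5.62 to 5.73 in neurospheres and 5.86 to 6.05 in cultured cells. The tissue thus held other cochlear cells beside the nerve, and their part in the values below was not tested. Sox2, a progenitor and glial transcription factor, averaged 7.47 in neurospheres, 6.64 in cultured cells and 10.67 in tissue. The 3′ probe set of the actin control exceeded the 5′ one by 0.70 ± 0.15 in neurospheres, 0.36 ± 0.037 in cultured cells and 2.71 ± 0.35 in tissue (SD, n = 3 each). That gap, a sign of shortened or partly copied RNA, moved with every comparison against tissue, and its part in those results was not tested.

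Against tissue, neurospheres had 7 members higher and 8 lower, and 21 did not pass. Over all genes tested, 21.7% were higher and 21.0% lower in that comparison, so the members' shares were near the background. The median log2 fold change was 0.06 over the members and 0.05 over all genes. Cultured cells had 9 members higher and 14 lower than tissue, against 20.4% higher and 22.0% lower over all genes. The median was -0.24 over the members and -0.01 over all genes. Under quantile normalization, which moved the median of all genes to 0.11 there, the split was 12 members higher and 11 lower. Over all genes that setting gave 4256 higher and 3659 lower. Neurospheres differed from cultured cells in 8 members, 6 higher and 2 lower, where all genes gave 9.0% higher and 8.91% lower. There the medians were 0.04 over the members and 0.05 over all genes. The 3 comparisons share arrays, and their values are given side by side. In bulk RNA, fewer cells of a type and less RNA per cell cannot be told apart, which holds for every member below.

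Across the comparisons with tissue, no member passed in opposite directions in neurospheres and cultured cells. The 8 members lower in both were the receptors Notch1 and Notch2, the targets Hey1 and Hey2, and Rfng, Numb, Dtx1 and Dtx3. The 6 higher in both were Jag1, Hes1, Adam17, Aph1a, Rbpj and Numbl. Another 12 passed in no comparison. Both comparisons with tissue use the same tissue arrays, so agreement in direction is favoured for any gene. The matching shares over all genes were not counted, so these counts are not read as a result about the members. The plot of fold changes by role sets the 3 comparisons beside each other.

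**Figure D1:**
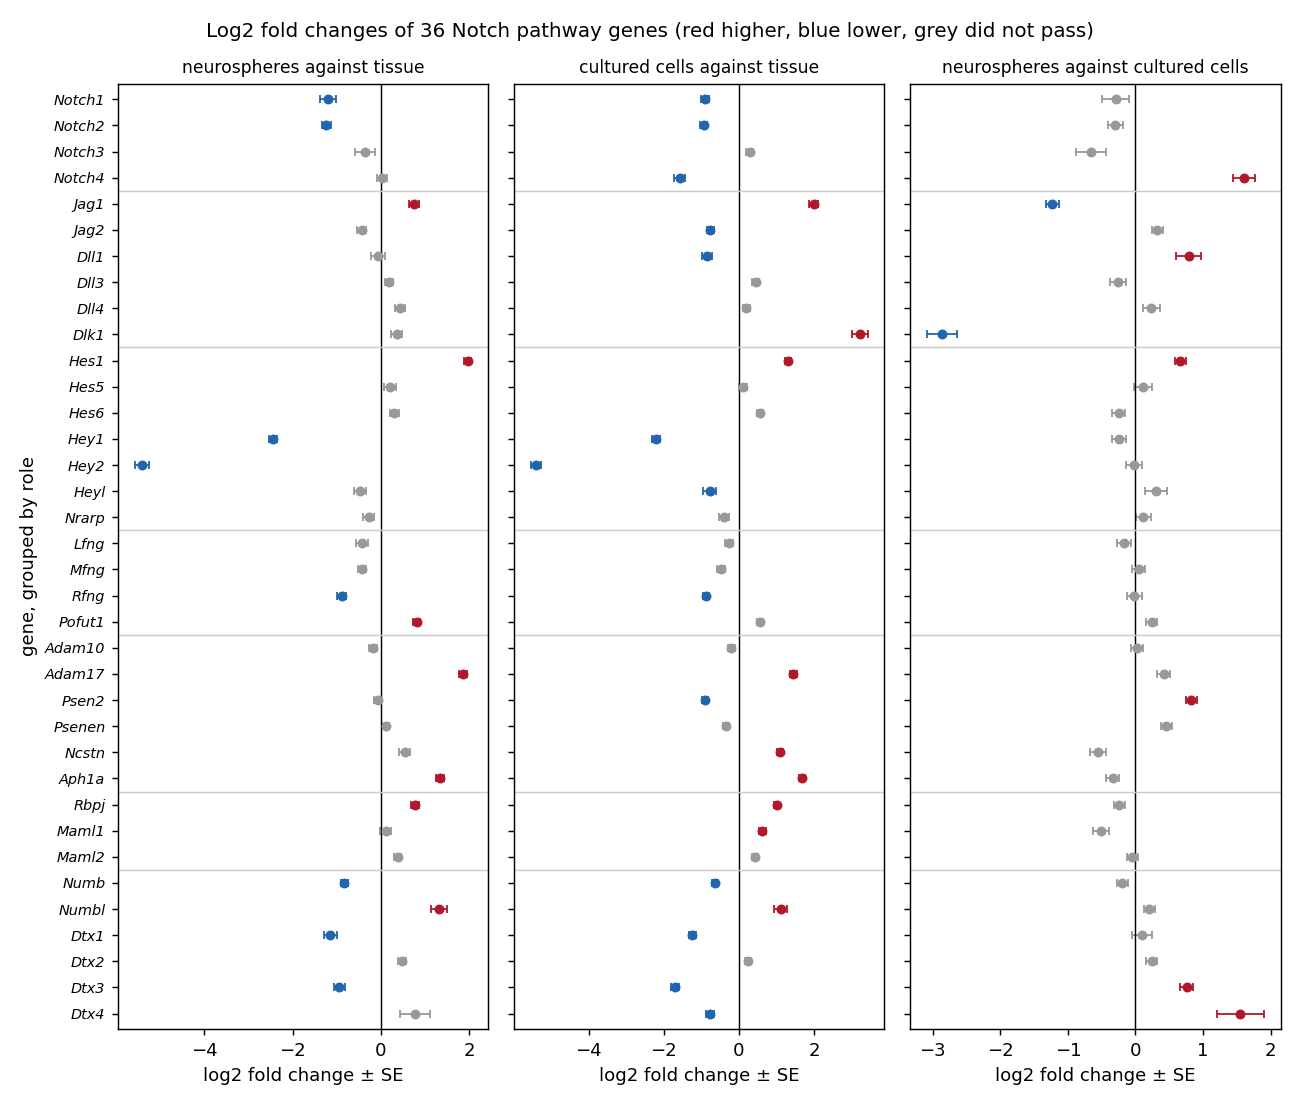
Log2 fold change of each of the 36 Notch pathway genes, with its standard error as a bar, with neurospheres set against tissue on the left, cultured cells against tissue in the middle and neurospheres against cultured cells on the right (the 3 panels have different scales). Red points passed as higher, blue as lower and grey did not pass. Hey2 lies farthest from 0 in both comparisons with tissue, at -5.42 and -5.40, and Dlk1 in the third, at -2.86.

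Of the 7 genes listed here as targets, 1 rose and 2 fell in both cultures. Whether signalling through the receptors set their levels was not tested. Hes1, a repressor that keeps progenitors from differentiating, rose in both cultures, while Hey1 and Hey2, repressors best known from vessels and the heart, fell in both. Hes1 read 9.29, 9.22 and 9.39 in neurospheres, 8.59, 8.61 and 8.71 in cultured cells, and 7.31, 7.41 and 7.30 in tissue. Every neurosphere array lay above every cultured-cell array, and every cultured-cell array above the nerve. Its log2 fold change against tissue was 1.96 in neurospheres (SE 0.09, adjusted p = 1.59e-07) and 1.30 in cultured cells (SE 0.08, adjusted p = 4.53e-07). Neurospheres exceeded cultured cells by 0.66 (SE 0.08, adjusted p = 0.000507). Hes1 was the only member to pass as higher in all 3 comparisons.

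Hey1 ran the other way. It read 6.55, 6.46 and 6.45 in neurospheres, 6.59, 6.64 and 6.95 in cultured cells, and 9.02, 8.88 and 8.91 in tissue. The tissue arrays were far above both cultures, whose ranges lay next to each other without overlap. Hey1 was 5.46-fold lower in neurospheres than in tissue (log2 fold change -2.45, SE 0.09, adjusted p = 3.56e-08) and 4.62-fold lower in cultured cells than in tissue (log2 fold change -2.21, SE 0.11, adjusted p = 7.40e-08). Between neurospheres and cultured cells it did not pass (log2 fold change -0.24, adjusted p = 0.13).

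Hey2 changed more than any other member. Its signal was 3.69, 3.56 and 3.95 in neurospheres, 3.66, 3.76 and 3.85 in cultured cells, and 8.84, 9.29 and 9.33 in tissue. The culture arrays overlapped each other just above the dim level, so the differences from tissue are read as lower bounds on the size of the fall. The log2 fold change was -5.42 in neurospheres (SE 0.16, adjusted p = 1.18e-08) and -5.40 in cultured cells (SE 0.13, adjusted p = 8.96e-10), each against tissue. The value for neurospheres against cultured cells was -0.02 (SE 0.12, adjusted p = 0.91).

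Heyl, the third Hey gene, averaged 6.29 ± 0.15 in neurospheres, 5.99 ± 0.34 in cultured cells and 6.77 ± 0.23 in tissue. It fell in cultured cells against tissue (log2 fold change -0.78, adjusted p = 0.00297), a call lost under quantile normalization (-0.44), and gave -0.48 in neurospheres, under the fold threshold. A second, nearly as bright Heyl probe set passed as lower in both, at -0.96 in neurospheres and -1.33 in cultured cells, and a dimmer one gave 0.16 in neurospheres and -0.10 in cultured cells without passing. Hes5, a Hes gene active in neural progenitors, averaged 5.90 ± 0.25 in neurospheres, 5.79 ± 0.13 in cultured cells and 5.70 ± 0.13 in tissue, and passed nowhere. Hes6, which opposes Hes1 and promotes neuronal differentiation, averaged 8.07 ± 0.15 in neurospheres, 8.31 ± 0.059 in cultured cells and 7.77 ± 0.052 in tissue (SD, n = 3 for each). Its differences from tissue, 0.30 in neurospheres and 0.55 in cultured cells, stayed under the fold threshold on a probe set that can also bind other transcripts. A second Hes6 probe set passed as higher in both cultures, by 0.99 in neurospheres and 1.13 in cultured cells. Nrarp, a target that feeds back to dampen the pathway, gave -0.28 in neurospheres and -0.40 in cultured cells against tissue. Its second probe set passed as lower, at -1.37 in neurospheres and -1.27 in cultured cells.

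**Figure D2:**
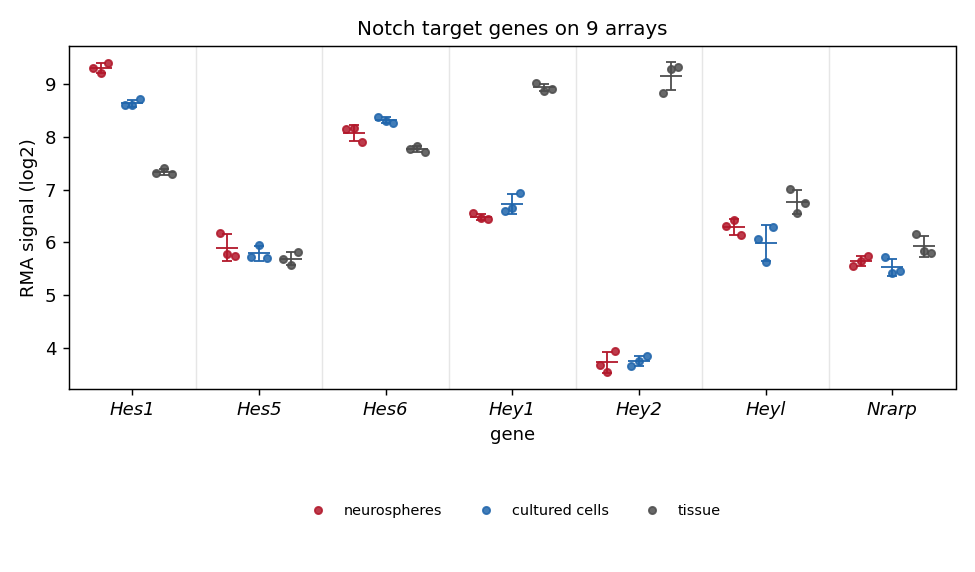
RMA signal (log2) of the 7 Notch target genes on each of the 9 arrays (points: neurospheres, cultured cells and tissue from left to right within a gene; bars: mean ± SD, n = 3). Hes1 stands highest in neurospheres, Hey1 and Hey2 in tissue, and the 3 groups of Hes5 overlap.

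RBPJ, the DNA-binding partner of the receptor, is known to bind the letters GTGGGAA. Promoter windows of 300 bases, 250 before to 50 after a RefSeq start on GRCm38.p6, were found for 30 of the 36 members, among them the targets Hes5, Hes6, Hey2 and Nrarp. The motif stood on either strand in 6.38% of 32851 windows of all genes and in 5 of the members' 38 windows (13.2%), those of Hes5, Hey2, Lfng, Psen2 and Aph1a. Hes5 and Hey2 held 2 copies each. Their windows are shown because both hold the motif on both strands, while Hey2 is the member that changed most and Hes5 passed in no comparison. The capitals mark the motif or, where it lies on the other strand, its complement TTCCCAC.
Hey2: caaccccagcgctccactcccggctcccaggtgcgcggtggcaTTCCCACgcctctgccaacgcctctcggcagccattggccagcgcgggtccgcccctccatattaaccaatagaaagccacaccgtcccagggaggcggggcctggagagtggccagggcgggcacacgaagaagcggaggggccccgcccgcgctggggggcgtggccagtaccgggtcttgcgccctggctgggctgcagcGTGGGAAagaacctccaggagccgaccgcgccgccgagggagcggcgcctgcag
Hes5: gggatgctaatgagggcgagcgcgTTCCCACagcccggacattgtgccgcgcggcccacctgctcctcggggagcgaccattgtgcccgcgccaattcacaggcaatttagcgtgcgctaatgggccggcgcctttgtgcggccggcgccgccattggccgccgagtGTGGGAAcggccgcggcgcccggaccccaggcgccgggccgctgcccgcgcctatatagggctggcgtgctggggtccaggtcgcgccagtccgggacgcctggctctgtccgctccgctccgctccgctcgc
The Hey2 window is chr10:30842734-30843033 on the minus strand, and the copies begin 207 and 4 bases before the start. The Hes5 window is chr4:154960673-154960972 on the plus strand, with copies 226 and 83 bases before the start. The shorter core TGGGAA, contained in that motif, occurred in 25.6% of all windows and in 10 of the members' 38 windows (26.3%), near the share over all genes. These letters are a description of the windows and say nothing of binding in these samples.

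Of the receptors, Notch1 and Notch2 were lower in both cultures than in tissue, and Notch4 was lower in cultured cells than in either other group. Notch1, the receptor most studied in neural progenitors, read 8.02, 8.78 and 8.05 in neurospheres, 8.47, 8.49 and 8.77 in cultured cells, and 9.53, 9.46 and 9.46 in tissue. The cultures overlapped each other, with neurosphere array 2 as high as the highest cultured-cell array, and all lay below the nerve. The log2 fold change against tissue was -1.20 in neurospheres (SE 0.19, adjusted p = 0.000491) and -0.91 in cultured cells (SE 0.10, adjusted p = 2.61e-05). A second Notch1 probe set gave -1.04 in neurospheres and -0.84 in cultured cells against tissue.

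Notch2, a receptor with broad roles in epithelia and vessels, had signals of 9.07, 9.43 and 9.20 in neurospheres, 9.42, 9.61 and 9.57 in cultured cells, and 10.40, 10.49 and 10.52 in tissue. Tissue was again above both cultures, which touched at their edges. It fell by 1.24 in neurospheres (SE 0.11, adjusted p = 1.17e-05) and by 0.94 in cultured cells against tissue (SE 0.09, adjusted p = 7.37e-06). A second, dim Notch2 probe set gave -0.18 in neurospheres and -0.24 in cultured cells and did not pass.

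Notch4, a receptor of vascular endothelium, read 7.91, 7.63 and 7.54 in neurospheres, 5.77, 6.11 and 6.39 in cultured cells, and 7.79, 7.66 and 7.56 in tissue. Neurospheres and tissue overlapped and cultured cells stood below both. The difference was 1.60 for neurospheres against cultured cells (SE 0.17, adjusted p = 0.000155) and -1.58 for cultured cells against tissue (SE 0.15, adjusted p = 8.39e-06). Neurospheres against tissue gave 0.02 (SE 0.12, adjusted p = 0.88). The other pair of Notch4 probe sets, dim at means of 3.90 and 4.41, passed in none of the comparisons, and the mean of the probe sets gave -0.55 for cultured cells against tissue, under the fold threshold.

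Notch3, the receptor of mural cells of vessels, averaged 7.76 ± 0.51 in neurospheres, 8.41 ± 0.11 in cultured cells and 8.12 ± 0.081 in tissue (SD, n = 3 each) and passed nowhere. Its neurosphere arrays were spread from 7.24 to 8.26. Without neurosphere replicate 2, the highest, Notch3 passed as lower against tissue (-0.62, against -0.37 on all arrays) and against cultured cells (-0.90, against -0.65 on all arrays). The value of -0.65 had an adjusted p of 0.054, close to the threshold. It passed with all 9 arrays fitted together (adjusted p = 0.025), without the dimmest 40% of genes (adjusted p = 0.047) and in the fit over all probe sets (adjusted p = 0.0499). The probe set used can also bind other transcripts. A second Notch3 probe set passed nowhere. On it, neurospheres gave 0.08 against tissue and -0.43 against cultured cells, and cultured cells gave 0.51 against tissue.

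Markers of vessels are given beside these genes. Of 12 endothelial markers, 4 were higher and 8 lower in neurospheres than in tissue, 2 higher and 8 lower in cultured cells than in tissue, and 1 higher and 2 lower in neurospheres than in cultured cells. Their mean level was 6.44 to 6.64 in neurospheres, 6.65 to 6.66 in cultured cells and 7.99 to 8.10 in tissue. Sox17, an endothelial transcription factor, averaged 3.70 in neurospheres, 3.56 in cultured cells and 9.03 in tissue, near the dim level in both cultures. Emcn, an endothelial surface protein, was among the 4 higher, at 11.98 in neurospheres, 11.91 in cultured cells and 10.31 in tissue. Of 12 smooth muscle and pericyte markers, 1 was higher and 6 lower in neurospheres than in tissue, and 6 higher and 4 lower in cultured cells than in tissue. In neurospheres against cultured cells, 3 of these were higher and 6 lower. The part of either cell type in the Notch and Hey values was not tested.

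Among the ligands, the Jagged genes parted. Jag1, the main ligand of supporting cells and vessel walls, was highest in cultured cells, at 9.46, 9.61 and 9.44 in neurospheres, 10.66, 10.67 and 10.88 in cultured cells, and 8.53, 8.92 and 8.80 in tissue. No groups overlapped, and neurospheres lay between the other groups. Jag1 was 1.68-fold higher in neurospheres than in tissue (log2 fold change 0.75, SE 0.12, adjusted p = 0.000467) and 3.96-fold higher in cultured cells than in tissue (1.99, SE 0.12, adjusted p = 2.84e-07). Neurospheres were 2.35-fold lower than cultured cells (-1.23, SE 0.10, adjusted p = 3.37e-05). Its other probe sets gave 0.58, just under the fold threshold, and 2.09 in neurospheres, and 1.24 and 3.46 in cultured cells, each against tissue.

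Jag2 averaged 7.03 ± 0.080 in neurospheres, 6.71 ± 0.059 in cultured cells and 7.47 ± 0.14 in tissue (SD, n = 3 each). It fell in cultured cells against tissue (log2 fold change -0.76, SE 0.10, adjusted p = 6.87e-05), though under quantile normalization the change of -0.55 missed the fold threshold. A second, dimmer Jag2 probe set gave -0.41 in neurospheres and -0.47 in cultured cells against tissue and did not pass.

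Dll1, a Delta-like ligand made by differentiating neuronal precursors, read 6.30, 6.82 and 6.93 in neurospheres, 5.97, 5.63 and 6.10 in cultured cells, and 6.69, 6.70 and 6.87 in tissue. Cultured cells were lowest, and neurospheres spread on both sides of the tissue arrays. The log2 fold change was 0.79 for neurospheres against cultured cells (SE 0.18, adjusted p = 0.0106) and -0.86 for cultured cells against tissue (SE 0.13, adjusted p = 0.000195). The second of these was -0.51 under quantile normalization and did not pass. Neurospheres against tissue gave -0.07 (SE 0.16, adjusted p = 0.74).

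Dlk1, a Delta-like protein without the receptor-activating domain of the others and known from adipocyte precursors, showed the largest change among the ligands. It read 5.97, 6.35 and 6.10 in neurospheres, 9.56, 8.75 and 8.69 in cultured cells, and 5.91, 5.79 and 5.65 in tissue. Cultured cells stood apart from both other groups, with array 1 the highest. Dlk1 was 7.26-fold lower in neurospheres than in cultured cells (log2 fold change -2.86, SE 0.22, adjusted p = 3.52e-05) and 9.27-fold higher in cultured cells than in tissue (log2 fold change 3.21, SE 0.21, adjusted p = 5.10e-07). A second, dim Dlk1 probe set gave -0.46 for neurospheres against cultured cells and 0.95 for cultured cells against tissue. Neurospheres against tissue gave 0.35, below the fold threshold.

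Dll3, a Delta-like protein that acts inside the cell on its own receptors, averaged 4.56 in neurospheres, 4.82 in cultured cells and 4.38 in tissue, not far above the dim level. Dll4, a ligand of sprouting vessels, averaged 5.86 in neurospheres, 5.62 in cultured cells and 5.42 in tissue. Neither passed in any comparison.

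**Figure D3:**
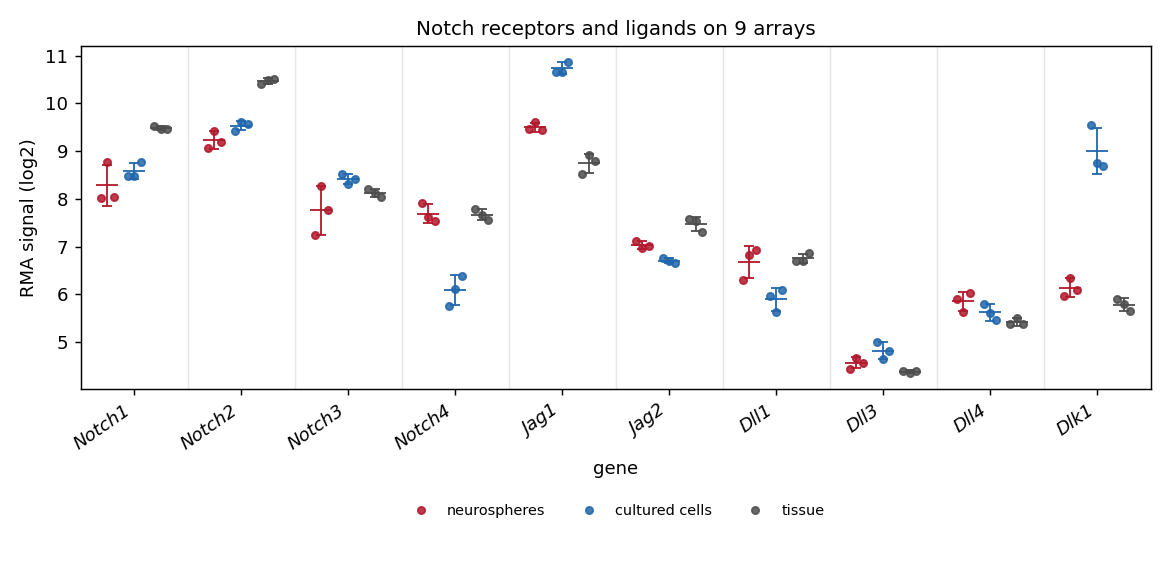
RMA signal (log2) of the 4 Notch receptors and 6 ligands on each of the 9 arrays (points: neurospheres, cultured cells and tissue from left to right within a gene; bars: mean ± SD, n = 3). Jag1 and Dlk1 stand highest and Notch4 and Dll1 lowest in cultured cells, while Notch1 and Notch2 stand highest in tissue.

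Glycosylation enzymes set how strongly a receptor answers each kind of ligand. Pofut1 adds the O-fucose on which the Fringe enzymes build, and averaged 10.13 ± 0.063 in neurospheres, 9.89 ± 0.060 in cultured cells and 9.33 ± 0.0087 in tissue (SD, n = 3 each). It rose in neurospheres against tissue (log2 fold change 0.81, SE 0.08, adjusted p = 2.87e-05). In cultured cells the difference was 0.56, just under the fold threshold, and it passed at 0.59 without cultured cell replicate 2 and at 0.73 as the mean of the probe sets. Of the other Pofut1 probe sets, 1 passed in both cultures, at 1.18 in neurospheres and 1.08 in cultured cells, and 1 passed in neurospheres alone, at 0.59 against 0.56 in cultured cells, on either side of the fold threshold.

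Of the Fringe genes, Rfng averaged 8.93 ± 0.19 in neurospheres, 8.95 ± 0.068 in cultured cells and 9.82 ± 0.028 in tissue. The brightest Rfng probe set passed as lower, at -0.89 in neurospheres (adjusted p = 9.45e-05) and -0.88 in cultured cells (adjusted p = 6.79e-06). A second Rfng probe set passed in the opposite direction, at 0.66 in neurospheres and 0.64 in cultured cells, so the direction of Rfng rests on the probe set. Lfng averaged 5.64 in neurospheres, 5.80 in cultured cells and 6.07 in tissue, and passed nowhere. Mfng averaged 5.55 in neurospheres, 5.50 in cultured cells and 5.98 in tissue, and likewise passed nowhere.

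Processing enzymes cut the receptor after the ligand has bound. Adam17, a metalloprotease that sheds many surface proteins besides Notch, rose in both cultures. It read 10.59, 10.76 and 10.74 in neurospheres, 10.40, 10.15 and 10.29 in cultured cells, and 8.71, 8.87 and 8.93 in tissue. Both cultures were well above the nerve, and neurospheres were above cultured cells. The log2 fold change against tissue was 1.86 in neurospheres (SE 0.10, adjusted p = 4.23e-07) and 1.44 in cultured cells (SE 0.10, adjusted p = 8.21e-07). Its other probe sets gave 1.90 and 2.16 in neurospheres, and 1.92 and 2.03 in cultured cells. The step of 0.42 between neurospheres and cultured cells was under the fold threshold.

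Adam10, the metalloprotease held to be the main ligand-dependent cutter of Notch, gave no single answer. Its brightest probe set averaged 11.61 in neurospheres, 11.59 in cultured cells and 11.80 in tissue and passed nowhere. A pair of its other probe sets passed as higher against tissue, at 1.53 and 2.17 in neurospheres and at 1.63 and 2.15 in cultured cells. The remaining one passed as lower, at -0.73 in neurospheres and -0.89 in cultured cells.

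γ-Secretase is represented by 4 of the members. Aph1a, a scaffold subunit, read 10.20, 9.98 and 10.02 in neurospheres, 10.49, 10.36 and 10.36 in cultured cells, and 8.64, 8.72 and 8.82 in tissue. All groups were apart, with tissue lowest. It rose by 1.34 in neurospheres (SE 0.10, adjusted p = 3.68e-06) and by 1.67 in cultured cells (SE 0.09, adjusted p = 1.15e-07) against tissue. That probe set carries a suffix that marks probes shared with other transcripts. Of the other Aph1a probe sets, 1 gave 0.82 in neurospheres and 0.77 in cultured cells, and 1 gave -0.19 in neurospheres and -0.03 in cultured cells.

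Psen2, a catalytic subunit, read 9.07, 9.02 and 8.94 in neurospheres, 8.25, 8.14 and 8.16 in cultured cells, and 9.20, 9.05 and 9.03 in tissue. Neurospheres and tissue overlapped, and cultured cells lay below both. The difference was 0.83 for neurospheres against cultured cells (SE 0.08, adjusted p = 0.000113) and -0.91 for cultured cells against tissue (SE 0.09, adjusted p = 8.86e-06). A second Psen2 probe set passed in none, and the mean of both left 0.46 for neurospheres against cultured cells and -0.47 for cultured cells against tissue, under the fold threshold.

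Ncstn, the subunit that receives the substrate, averaged 6.59 ± 0.23 in neurospheres, 7.14 ± 0.041 in cultured cells and 6.05 ± 0.077 in tissue (SD, n = 3 each). It rose in cultured cells against tissue (log2 fold change 1.08, SE 0.08, adjusted p = 1.70e-06). Neurospheres gave 0.53 against tissue and -0.55 against cultured cells, both under the fold threshold on all arrays. The first passed at 0.66 without neurosphere replicate 1, and the second at -0.66 without neurosphere replicate 2. A second, equally dim Ncstn probe set passed nowhere. Its differences from tissue were 0.56 in neurospheres and 0.27 in cultured cells. Neurospheres lay 0.29 above cultured cells on it, where the sign was the other way. Psenen, the smallest subunit, averaged 11.58 in neurospheres, 11.13 in cultured cells and 11.48 in tissue and passed nowhere.

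In the nuclear complex, Rbpj was higher in both cultures than in tissue. It averaged 10.81 ± 0.11 in neurospheres, 11.05 ± 0.0081 in cultured cells and 10.05 ± 0.056 in tissue (SD, n = 3 each). The log2 fold change was 0.76 in neurospheres (SE 0.09, adjusted p = 9.13e-05) and 0.999 in cultured cells (SE 0.08, adjusted p = 2.13e-06). Other Rbpj probe sets gave larger values in the same direction, 2.36 and 1.97 in neurospheres and 2.56 and 2.59 in cultured cells.

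Maml1, a Mastermind coactivator, averaged 9.80 ± 0.20 in neurospheres, 10.31 ± 0.11 in cultured cells and 9.70 ± 0.093 in tissue. It passed in cultured cells against tissue by a narrow margin (log2 fold change 0.62, SE 0.09, adjusted p = 0.000244). The fold fell under the threshold without tissue replicate 2 (0.58) and without cultured cell replicate 3 (0.55). For neurospheres against cultured cells it gave -0.51, and passed at -0.61 without neurosphere replicate 2. Maml2 averaged 5.48 in neurospheres, 5.53 in cultured cells and 5.11 in tissue and passed nowhere.

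Modulators act on the receptor inside the cell. Numb, an endocytic inhibitor of Notch that is handed to 1 daughter cell in asymmetric division, and its relative Numbl went opposite ways on their brightest probe sets. Numbl read 8.69, 8.70 and 8.54 in neurospheres, 8.44, 8.46 and 8.43 in cultured cells, and 6.87, 7.66 and 7.46 in tissue. Both cultures were above the nerve, where array 1 was lowest. Numbl rose by 1.31 in neurospheres (SE 0.19, adjusted p = 0.00025) and by 1.11 in cultured cells (SE 0.17, adjusted p = 0.000314) against tissue. Numb averaged 9.54 ± 0.067 in neurospheres, 9.73 ± 0.055 in cultured cells and 10.37 ± 0.050 in tissue (SD, n = 3 each). It passed as lower, at -0.83 in neurospheres and -0.63 in cultured cells. A second Numb probe set passed as higher, at 0.86 in neurospheres and 0.96 in cultured cells, and the mean of both was near 0 in neurospheres (0.01) and 0.16 in cultured cells.

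The Deltex genes encode E3 ubiquitin ligases that bind Notch or resemble the one that does. Dtx3 read 9.04, 9.26 and 9.28 in neurospheres, 8.38, 8.44 and 8.49 in cultured cells, and 10.34, 10.13 and 9.95 in tissue. The groups were apart, with cultured cells lowest and tissue highest. Against tissue it fell by 0.95 in neurospheres (SE 0.12, adjusted p = 0.000146) and by 1.70 in cultured cells (SE 0.11, adjusted p = 4.94e-07). Neurospheres were above cultured cells by 0.76 (SE 0.09, adjusted p = 0.000401). Dtx1 averaged 6.76 ± 0.32 in neurospheres, 6.66 ± 0.067 in cultured cells and 7.91 ± 0.11 in tissue. It was lower in both cultures, by a log2 fold change of -1.15 in neurospheres (adjusted p = 0.000194) and -1.25 in cultured cells (adjusted p = 1.17e-06). A second, dim Dtx1 probe set gave -0.02 in neurospheres and -0.15 in cultured cells and did not pass.

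Dtx4 showed the widest spread of any member. Its signal was 8.92, 10.38 and 10.28 in neurospheres, 8.38, 8.15 and 8.40 in cultured cells, and 9.21, 8.996 and 9.05 in tissue. Neurosphere array 1 lay below every tissue array and the other neurosphere arrays above all of them, while cultured cells were lowest throughout. The log2 fold change was 1.55 for neurospheres against cultured cells (SE 0.34, adjusted p = 0.00855) and -0.78 for cultured cells against tissue (SE 0.10, adjusted p = 8.53e-05). Neurospheres against tissue did not pass on all arrays (0.78, SE 0.34, adjusted p = 0.076), and passed at 1.25 without neurosphere replicate 1. A second Dtx4 probe set passed for neurospheres against cultured cells, at 0.80. Against tissue that probe set gave 0.40 in neurospheres and -0.40 in cultured cells and did not pass. Dtx2 averaged 8.43 in neurospheres, 8.20 in cultured cells and 7.96 in tissue and passed nowhere on a probe set that can also bind other transcripts. Its second probe set passed as higher than in tissue, at 1.35 in neurospheres and 1.09 in cultured cells.

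**Figure D4:**
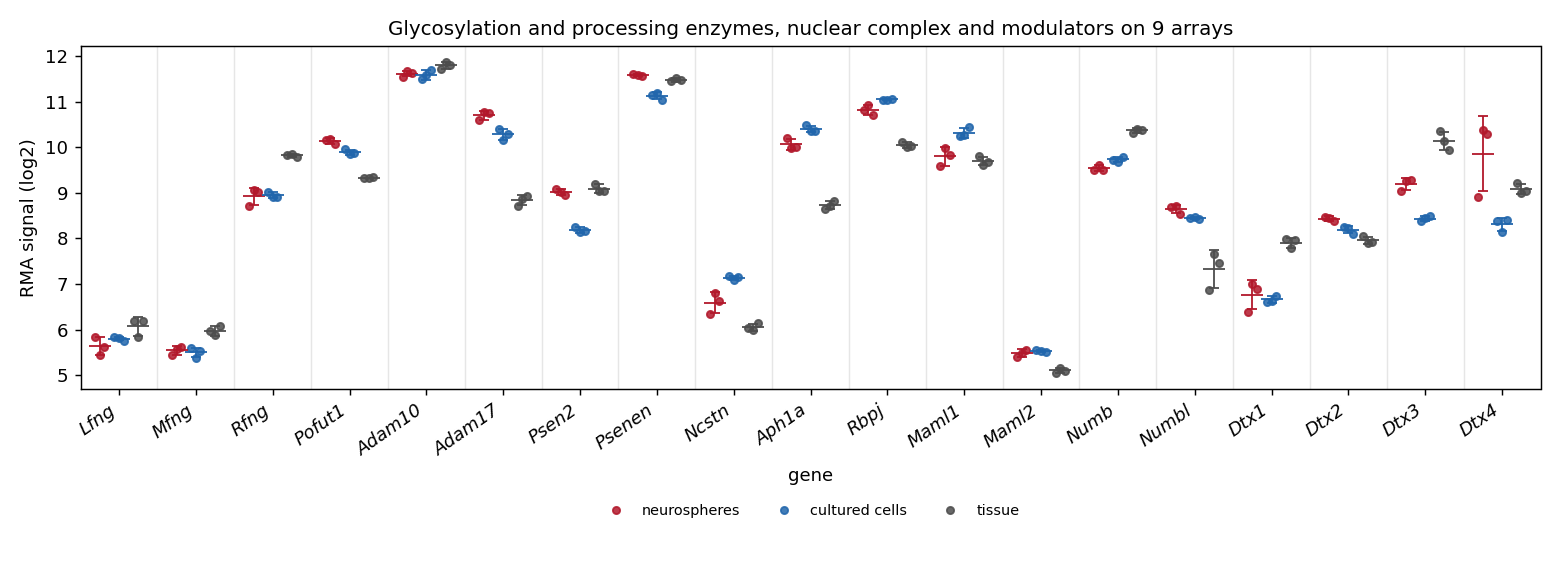
RMA signal (log2) of the glycosylation enzymes, processing enzymes, nuclear complex and modulators on each of the 9 arrays (points: neurospheres, cultured cells and tissue from left to right within a gene; bars: mean ± SD, n = 3). Adam17, Aph1a, Rbpj and Numbl lie lowest in tissue, Dtx3 and Psen2 lowest in cultured cells, and Dtx4 is spread in neurospheres between 8.92 and 10.38.

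Several calls rest on the choice of probe set. Among the 36 members, 26 had more than 1 probe set, and the members had 72 in all. Of these 72, 21 passed as higher and 12 as lower in neurospheres against tissue, 24 and 18 in cultured cells against tissue, and 7 and 6 in neurospheres against cultured cells. The matching shares over all probe sets were not counted. In both comparisons with tissue, Numb and Rfng were the 2 called members with another probe set that passed the opposite way. Of the members called with further probe sets, 4 in neurospheres against tissue, 10 in cultured cells against tissue and 3 in neurospheres against cultured cells had none called alike.

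**Figure D5:**
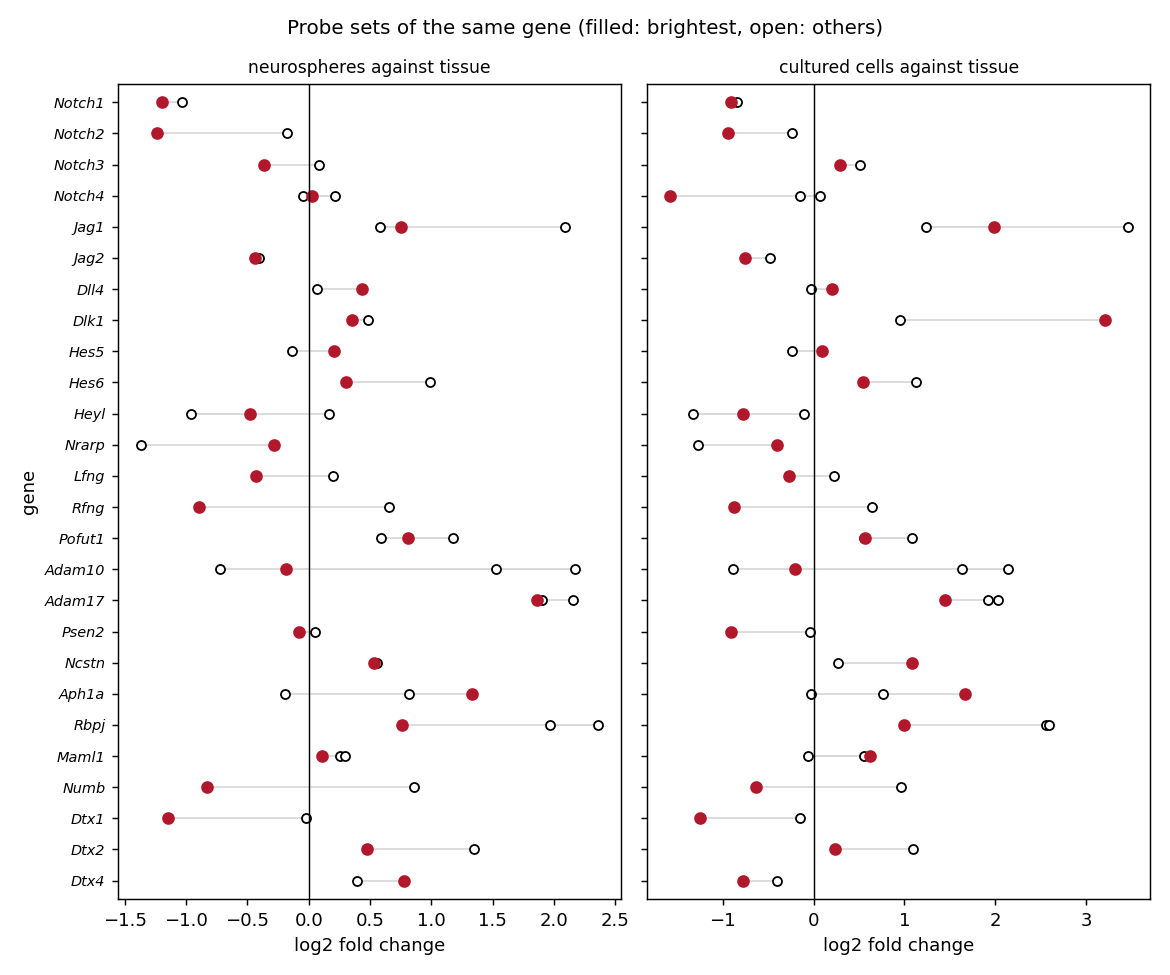
Log2 fold change of every probe set of the 26 members with several, in neurospheres against tissue and in cultured cells against tissue (filled: the brightest, used for the tests; open: the others; the panels have different scales). The points of Numb, Rfng and Adam10 fall on both sides of 0, while those of Jag1, Adam17 and Rbpj all lie above it.

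Of 31 further pathway genes measured (cofactors, corepressors, other ligands and regulators), 5 were higher and 6 lower in neurospheres than in tissue, with a median log2 fold change of -0.15. In cultured cells against tissue 4 were higher and 6 lower (median -0.04), and in neurospheres against cultured cells 2 were higher and 5 lower (median 0.04). As shares, 16.1% were higher and 19.4% lower in neurospheres against tissue, beside 21.7% and 21.0% over all genes. For cultured cells against tissue they were 12.9% and 19.4%, beside 20.4% and 22.0%. For neurospheres against cultured cells they were 6.45% and 16.1%, beside 9.0% and 8.91%. Dner, a neuronal surface protein described as an atypical Notch ligand, averaged 9.06 ± 0.17 in neurospheres, 12.55 ± 0.18 in cultured cells and 12.55 ± 0.045 in tissue (SD, n = 3 each). It fell by 3.49 in neurospheres both against tissue (adjusted p = 1.53e-08) and against cultured cells (adjusted p = 8.65e-07). For cultured cells against tissue it gave an adjusted p of 0.99, although none of the 13 neuronal markers was higher in cultured cells and all 13 were lower.

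Ccn3, a matrix protein reported to bind Notch1, averaged 11.10 ± 0.28 in neurospheres, 13.28 ± 0.039 in cultured cells and 9.31 ± 0.23 in tissue. It was higher than in tissue by 1.79 in neurospheres and 3.96 in cultured cells, and lower in neurospheres than in cultured cells by a log2 fold change of -2.18. Among corepressors of the Groucho family, Tle2 was higher than in tissue by 1.14 in neurospheres and 1.16 in cultured cells. Tle3 also passed as higher, at 0.74 in neurospheres and 0.66 in cultured cells. Tle4 passed as lower, at -1.63 in neurospheres and -1.81 in cultured cells. Tle5 gave -0.32 in neurospheres and -0.34 in cultured cells and did not pass. Cir1, a corepressor that binds RBPJ, was higher by 1.07 in neurospheres and 0.93 in cultured cells. Aph1b, the second scaffold subunit of γ-secretase, gave -1.87 in neurospheres and -1.22 in cultured cells against tissue. Those signs are opposite to those of the brightest Aph1a probe set, a shared one. The other Aph1a probe sets gave 0.82 and -0.19 in neurospheres and 0.77 and -0.03 in cultured cells. Fbxw7, which marks the Notch intracellular domain for breakdown, gave -1.34 in neurospheres and -1.25 in cultured cells against tissue. Spen, an RBPJ corepressor, gave -1.09 for neurospheres against cultured cells and -1.13 for neurospheres against tissue. Tle1 gave 0.64 for neurospheres against cultured cells and 0.98 for neurospheres against tissue. Egfl7, a secreted vascular protein, gave 0.64 for neurospheres against cultured cells and -0.77 for cultured cells against tissue.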

How the data were processed

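RNA from 3 neurosphere, 3 cultured-cell and 3 tissue samples was labelled with a 3′ amplification kit from 100 ng and hybridised to Affymetrix mouse whole-genome arrays. The deposited values are log2 signals that the authors made with RMA in Affymetrix Expression Console, which background-corrects, normalizes across arrays and sums probes. The submitters' processing notes also name MAS5, and versions are not given in the sources used here. Of 45101 probe sets, 34945 named 1 gene, 932 several and 9160 none, and 64 were controls. Symbols were updated through Entrez IDs to RefSeq (GRCm38.p6), and 204 not found there were kept. Each of 18193 genes was read by its brightest probe set, judged by the mean of the 9 arrays. limma 3.58.1 (R 4.3.3) was fitted on the 6 arrays of each comparison, two-sided, with Benjamini-Hochberg adjustment over all genes. Further probe sets of a member were tested in a fit over all those that name 1 gene. The recovery of known changes was checked on simulated data. With 3 arrays a group, their number limits the precision. Alternatives were the fold threshold, quantile normalization, centring on the brighter genes, the mean of probe sets, no shared probe sets, no dim genes, all 9 arrays in 1 fit, a replicate block, the methods' t-test and leaving out each array. The members and lists were chosen with earlier results of these data known. Every array value was given for members that passed in neurospheres against cultured cells, the 8 largest changes in each comparison with tissue, and Notch1, Dll1, Hes1, Jag1 and Hey1. Of the further pathway genes, up to 3 per direction were named, with Tle3 and Tle5 added beside their family. Promoter windows are from RefSeq.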

Additional observations from a re-analysis of the deposited data

How the results depend on the processing

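Settings other than a fold threshold of 2 left 11 of 15 calls in neurospheres against tissue, 14 of 23 in cultured cells against tissue and 4 of 8 in neurospheres against cultured cells (Notch4, Jag1, Hes1 and Dtx3) in place each time the gene was tested. Hey2, counted among the 11 and the 14, was not tested without the dimmest 40% of genes. For the settings of this paragraph, shares over all genes were not counted, so its counts are not read as results about the members. Without a fold threshold, 13 members were higher in neurospheres than in tissue, 15 higher in cultured cells than in tissue, and 10 higher and 5 lower in neurospheres than in cultured cells. Lower calls were gained there too: Heyl, Jag2, Lfng and Mfng in neurospheres against tissue, and Mfng, Nrarp and Psenen in cultured cells against tissue. Requiring a fold over 2 left 4 higher and 5 lower in neurospheres against tissue. In cultured cells against tissue it left 5 lower, and Maml1 and Rbpj were the higher calls lost. In neurospheres against cultured cells it left 2 higher, and no lower call was lost. Without shared probe sets, 1 member was lower in neurospheres than in cultured cells, with Dlk1 lost, and Aph1a gave -0.19 in neurospheres and -0.026 in cultured cells against tissue, in place of 1.34 and 1.67. Leaving out each array gave 2 to 5 members lower in neurospheres than in cultured cells, with 5 without neurosphere replicate 2, when Maml1, Ncstn and Notch3 passed. Notch3 also passed there with all 9 arrays fitted together and without the dimmest 40% of genes. With the mean of the probe sets, Adam10 was 0.70 in neurospheres and 0.67 in cultured cells against tissue (adjusted p = 5.6e-05 and 3.2e-05), and Numb 0.013 in neurospheres and 0.16 in cultured cells. That setting also lost Dtx1 and Rfng in neurospheres against tissue, and Notch4, Psen2, Rfng and Maml1 in cultured cells against tissue.

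Quantile normalization moved the median of all genes to 0.11 in cultured cells against tissue and to 0.13 in neurospheres against tissue, against -0.01 and 0.05 before. It gave 12 members higher and 11 lower in cultured cells than in tissue (9 and 14 before), with Dll1, Heyl and Jag2 lost, and 10 higher and 8 lower in neurospheres than in tissue. Over all genes it gave 4256 higher and 3659 lower in cultured cells, and 4402 higher and 3599 lower in neurospheres, each against tissue. The methods' t-test gave, at its unadjusted threshold, 7 members higher and 8 lower in neurospheres than in tissue, 9 and 14 in cultured cells than in tissue, and 6 and 2 in neurospheres than in cultured cells. After Benjamini-Hochberg it lost Heyl in cultured cells against tissue, and Dll1 and Dtx4 in neurospheres against cultured cells. Of the further pathway genes, no fold threshold gave 8 higher and 11 lower in neurospheres than in tissue, 10 and 12 in cultured cells than in tissue, and 5 and 8 in neurospheres than in cultured cells. A fold over 2 gave 3 higher in neurospheres against tissue, where Ep300 was the lower call lost. It gave 2 higher and 3 lower in cultured cells against tissue. In neurospheres against cultured cells it gave 0 higher, and Aph1b was the lower call lost. There 1 was higher under quantile normalization, with all 9 arrays fitted together and by the t-test. For these lost calls the cause was not tested. Shares over all genes were not counted for the fold thresholds, the fit of all 9 arrays or the t-test.

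Same-numbered samples correlated in their deviations at -0.09, -0.06 and -0.06 for neurospheres and tissue, 0.21, 0.07 and 0.13 for cultured cells and tissue, and -0.10, -0.19 and 0.04 for neurospheres and cultured cells. Differently numbered samples were not set beside these, so the values do not settle whether the numbers pair the samples. With the replicate block, 7 members were higher and 8 lower in neurospheres than in tissue, 9 and 14 in cultured cells than in tissue, and 6 and 2 in neurospheres than in cultured cells, the calls without it. Without the dimmest 40% of genes, 26 members were tested.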

Other observations

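Cell cycle genes, which divide cycling from resting cells, were higher in both cultures: all 11 passed as higher than tissue in neurospheres and in cultured cells, and all 11 as lower in neurospheres than in cultured cells. Their mean level was 9.19 to 9.64 in neurospheres, 10.91 to 11.09 in cultured cells and 5.82 to 6.04 in tissue. Macrophage markers went the other way, with 8 of 10 lower than tissue in each culture. Of 10 markers of cochlear epithelium and lateral wall, 8 were lower than tissue in each culture.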
